A study of Mus musculus with 4 samples.

Results

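The genes described are the cyclins, the cyclin-dependent kinases (CDKs) and the genes named for their inhibitors, in mouse cells that the labels call T-helper 2 (Th2) cells. They were chosen by symbol: names beginning Ccn with a letter from a to y, Cdk with a digit, or Cdkn, matched by Ensembl identifier, with dashed names and pseudogenes left out. The rule gave 65 of the 50600 genes in the tables. Of these, 64 are protein-coding and 1, Cdk19os, is the antisense gene of Cdk19. A gene whose exons overlap theirs on the other strand was found for 23 of them, and the genes and these opposite-strand partners together make 86. All 4 libraries belong to 1 group of primary cells of strain C57BL/6NJ, numbered as biological replicates 1 to 4, with no other condition to compare. A T cell differentiation protocol is linked, and the labels themselves name no agent. They share 1 donor identifier, separate mice are not stated, and age is not given, so any p-value measures only the spread between these 4 samples. The assay is labelled total RNA-seq, although the library protocol that is linked carries poly(A) in its name. The file headers name 0 hours of a T-helper time course.

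Cyclins are regulatory subunits that switch on CDKs. D-type cyclins with Cdk4 and Cdk6 act in G1, E-type cyclins with Cdk2 at the start of DNA synthesis, and B-type cyclins with Cdk1 in mitosis. Resting T cells hold the inhibitor p27, the product of Cdkn1b, and reduce it when they enter the cycle after antigen stimulation. Other cyclin and CDK pairs do not drive the cycle but phosphorylate RNA polymerase II or splicing proteins. The mRNAs of Ccnd1 and Ccnd2 are also known for long 3′ untranslated regions.

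The libraries held from 1452053 to 2351916 assigned fragments. A count of 0 allows up to 3 fragments, or 1.28 to 2.07 CPM (counts scaled by the library total) depending on the library, for counting error only. Levels below are given as TPM, which is the count divided by exon length and scaled to the same total in every library. Of the 10 T cell markers, 10 had a mean of at least 1 TPM, here called detected, with a summed level of 406 to 558 TPM. Of these, 8 had no exon overlap with an opposite-strand gene. Cd3e and Cd247 had such an overlap, and Cd247 was the highest of the 10 at a mean of 174 TPM. Over all protein-coding genes 34.0% were detected, or 57.9% of those with such an overlap and 27.2% of those without. Of 6 Th2 markers 4 were detected, only 1 of them, Il4, without such an overlap, and Il5 and Il13 were at 0 in every library. Among the B cell markers Cd79a was detected, and Cd79b and Ms4a1 were at 0. Of 4 myeloid markers Csf1r and Tyrobp were detected and Lyz2 was at 0, with a list sum of 112 to 131 TPM. Csf1r, which has such an overlap, held most of that sum at a mean of 107 TPM. For cytotoxic T cells 1 of 2 markers was detected (sum 0 to 3.8 TPM) and for natural killer cells 0 of 2. For erythroid cells 1 of 3 was detected (sum 7.01 to 19.1 TPM), Alas2, which has such an overlap. The part of these other cell types in the values below was not tested.

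The counts carry a strand condition that bears on every gene here. The mitochondrial genome gives the plainest reading: mt-Nd6, the only mRNA encoded on its light strand, had 24273 to 35280 fragments per library, while the other 12 mitochondrial mRNAs together had 1617 to 3083. The tables therefore hold mostly fragments assigned to the strand opposite the transcribed gene. A count here is the number of fragments assigned to a gene's annotated strand, and it is not read as that gene's transcript level. At a gene with no annotated partner on the other strand, a low count does not show whether fragments lay on that other strand, since no gene was there to collect them.

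Of the 64 protein-coding genes, 38 (59.4%) reached a mean of 1 TPM, against 34.0% of all 21764 protein-coding genes in the tables. Their median level was 2.0 TPM, against 0.144 TPM over all protein-coding genes. In every library 16 (25.0%) had a count of 0, against 44.6% of protein-coding genes, and another 2, Ccno and Cdk1, had a single fragment in all. The neighbourhood on the other strand moved with detection, in this set and over all genes. Of the 22 genes that share exon sequence with an opposite-strand gene, 16 were detected, against 57.9% of all protein-coding genes with such an overlap. Of the 42 without one, 22 were detected, against 27.2%. The median was 5.53 TPM with an exon overlap and 0.748 TPM for the 26 genes that had no opposite-strand gene within 5 kb. The 5 genes whose span, but not exons, an opposite gene overlaps had a median of 6.61 TPM, and the 11 with one within 5 kb had 1.73 TPM. Among the 64, the 5 with the highest mean TPM held 56.1% of all their counts.

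**Figure D1:**
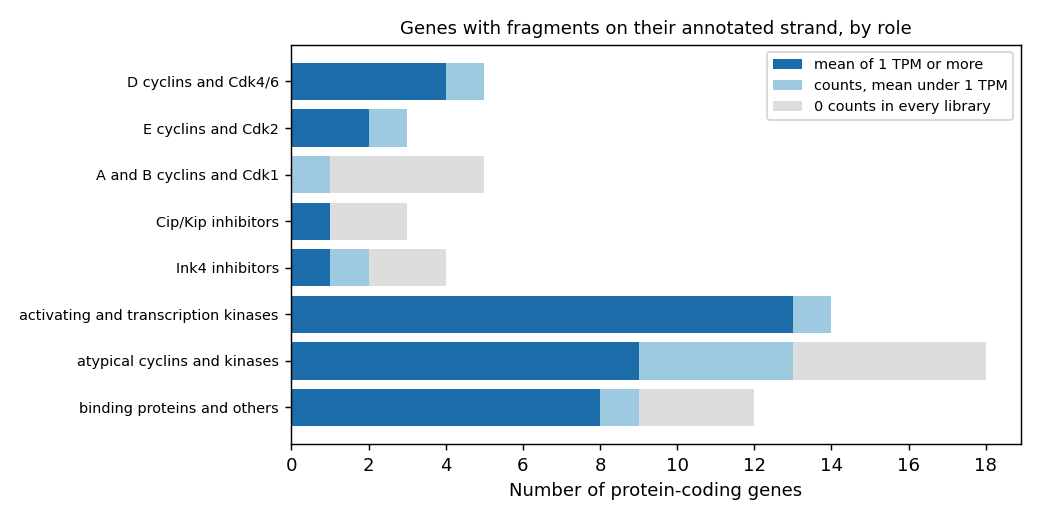
Number of protein-coding cyclin, CDK and inhibitor genes in each role (horizontal axis), divided into those with a mean of 1 TPM or more, those with counts but a lower mean, and those with 0 counts in all 4 libraries. None of the 5 genes of the A and B cyclin group and 13 of the 14 genes of the activating and transcription group reached 1 TPM. Over all protein-coding genes 34.0% did.

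By role, the G1 groups had counts at every gene, and the A and B cyclins with Cdk1 had 1 fragment among them. The D cyclins with Cdk4 and Cdk6 had 4 of 5 genes detected, at a median of 5.93 TPM, and the E cyclins with Cdk2 had 2 of 3, at a median of 33.3 TPM. The A and B cyclins with Cdk1, a group that includes a germ cell and a meiotic cyclin, had 0 of 5. Over all protein-coding genes, 57.9% of those with an opposite exon overlap were detected and 27.2% of those without. All 5 genes of the D group and 2 of 3 of the E group share exon sequence with an opposite-strand gene, while 1 of 5 of the A and B group does, so role and neighbourhood cannot be told apart in these counts.

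Cdk4, the G1 kinase bound by D cyclins, had 481, 379, 414 and 397 counts in replicates 1 to 4, or 102 ± 20.2 TPM (SD, n = 4). It lies on chromosome 10 (chr10:127063534-127067920, plus strand, mm10). No library fell below 78.6 TPM, and replicate 4 was highest at 127.5 TPM. Tspan31, a tetraspanin gene that meets it tail to tail with 641 shared exon bases, had 44, 55, 30 and 13 counts. Per kb of exon, Cdk4 was 8.85-fold denser than Tspan31, with a mean log2 ratio of 3.15 ± 0.88, and it was denser in each of the 4 libraries. Cdk6, the related kinase (chr5:3341485-3531008, plus strand), had 3, 13, 7 and 5 counts, or 0.383 ± 0.195 TPM. The antisense gene Gm17590, nested in Cdk6 and sharing 368 exon bases with it, had 29, 39, 32 and 26 counts on exons far shorter in sum. It was 54.1-fold denser than Cdk6, and its lowest library was above the highest Cdk6 library on the per-kb scale.

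Ccnd2, the D cyclin induced early in activated lymphocytes, had 39, 81, 58 and 64 counts, or 5.13 ± 1.78 TPM (chr6:127125162-127152193, minus strand). Gm43126, an antisense gene annotated at its 3′ end (chr6:127122966-127126155, plus strand), had 2091, 1689, 1837 and 1319 counts, or 891 ± 119 CPM. The shared stretch is 372 bases, which is 86.7% of the exon sequence of Gm43126 and 3.95% of that of Ccnd2. Gm43126 was 636-fold denser (log2 ratio of Ccnd2 over Gm43126 −9.31 ± 0.65), and its lowest library was above the highest Ccnd2 library per kb. Most of the exon sequence in which Gm43126 collects fragments thus lies opposite Ccnd2 exons.

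Ccnd3, the main D cyclin of developing T cells, had 64, 97, 48 and 59 counts, or 5.93 ± 1.55 TPM (chr17:47505051-47599691, plus strand). Bysl, a gene for ribosome assembly that meets it tail to tail (chr17:47599331-47611492, minus strand), had 2012, 1969, 1786 and 1221 counts, or 888 ± 56.6 CPM. The 361 shared bases are 9.37% of Bysl's exon sequence. Bysl was 59.8-fold denser than Ccnd3, again in every library. Where within Bysl these fragments lie is not given by a count per gene, so how many fall in the shared bases was not tested. Ccnd1, the third D cyclin, which lymphocytes are known to express little, had 77, 54, 110 and 27 counts, or 10.8 ± 5.27 TPM (chr7:144929931-144939925, minus strand). Its partner LTO1, with 1100 shared bases, had 4, 5, 6 and 1. Here the order was turned: Ccnd1 was 22.8-fold denser than LTO1. On the annotated strand the D cyclins therefore ran Ccnd1, Ccnd3, Ccnd2 by mean, and the ranges of all 3 overlapped: 5.98 to 17.9 TPM for Ccnd1, 4.19 to 7.44 for Ccnd3 and 2.89 to 7.10 for Ccnd2.

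**Figure D2:**
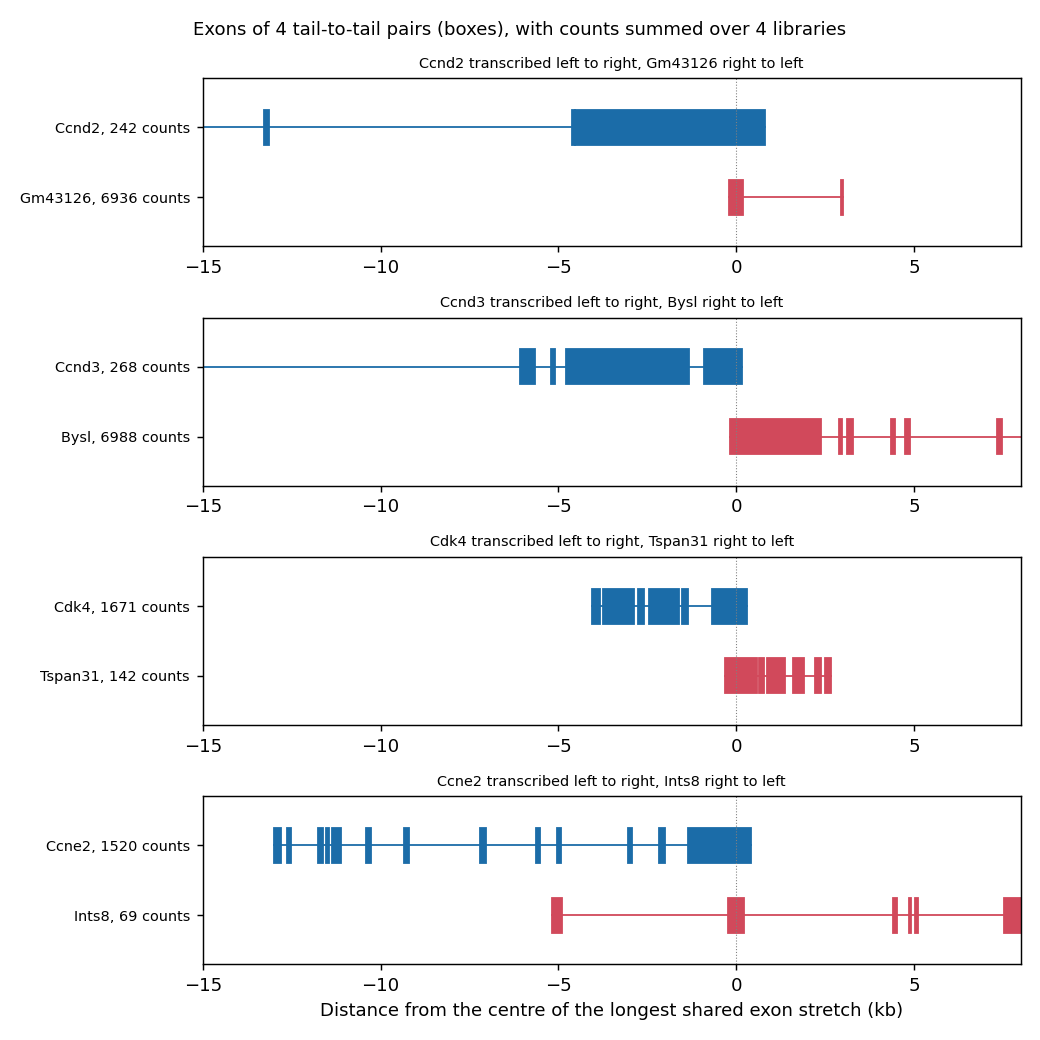
Exons (boxes) and introns (lines) of Ccnd2, Ccnd3, Cdk4 and Ccne2 in blue and of their tail-to-tail partners in red, drawn to scale against the distance in kb from the centre of the longest shared exon stretch, with some genes running past the window. The count beside each name is the sum over 4 libraries: the partners of Ccnd2 and Ccnd3 have 6936 and 6988, and those of Cdk4 and Ccne2 have 142 and 69.

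The E cyclins, which bind Cdk2 at the G1/S boundary, were among the highest genes. Ccne2 had 472, 356, 437 and 255 counts, or 83.6 ± 13.4 TPM (chr4:11191351-11204779, plus strand). Its tail-to-tail partner Ints8, an Integrator complex subunit with 609 shared bases, had 25, 19, 10 and 15, so that Ccne2 was 47.0-fold denser. Ccne1 had 131, 130, 106 and 91 counts, or 33.3 ± 2.19 TPM (chr7:38097984-38107534, minus strand), and it has no annotated opposite-strand gene within 5 kb. Its libraries spanned only 30.5 to 35.7 TPM, all below the lowest Ccne2 library at 68.6 TPM. Cdk2 itself had 10, 14, 2 and 1 counts, or 0.762 ± 0.662 TPM, with replicates 3 and 4 below the floor of 3. Pmel, a pigment cell gene that meets Cdk2 head to head, had 7256, 7381, 7131 and 4798 counts. The shared exon sequence is 34 bases, and Pmel shares 105 exon bases with another gene, Dgka, so its fragments are not assigned to either. The log2 ratio of Cdk2 over Pmel was −11.8 ± 1.37, the lowest of all the pairs.

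The RefSeq promoter window of Cdk2 (GRCm38.p6, the build called mm10) is shown because exons of Pmel reach into it on the other strand. It runs from 250 bases before to 50 after the start, chr10:128705002-128705301, read on the minus strand, and the 105 capital letters are bases that lie in Pmel exons.
Cdk2: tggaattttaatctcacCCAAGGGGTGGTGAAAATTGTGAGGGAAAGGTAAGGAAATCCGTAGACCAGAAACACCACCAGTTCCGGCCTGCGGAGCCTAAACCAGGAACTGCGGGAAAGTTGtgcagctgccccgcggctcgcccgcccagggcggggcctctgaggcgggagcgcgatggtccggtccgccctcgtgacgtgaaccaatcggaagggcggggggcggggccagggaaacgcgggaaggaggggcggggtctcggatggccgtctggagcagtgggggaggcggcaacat
All of the capitals stand upstream of the Cdk2 start.

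The A and B cyclins and Cdk1 had almost no fragments. Ccnb1 and Ccnb2, the B cyclins of dividing cells, Ccnb3, a meiotic B cyclin, and Ccna1, the germ cell A cyclin, had 0 counts in each library. Cdk1, their kinase, had 1 fragment, in replicate 3. Ccnf, an F-box cyclin that peaks in G2, was also at 0, while the antisense gene BC028777, 1502 bases away on the other strand, had 42, 35, 41 and 13 counts. None of Ccnb1, Ccnb2, Ccnb3 and Cdk1 has an opposite-strand gene within 5 kb. For Ccna1 the partner 4931419H13Rik was at 0 too.

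Promoters of mitotic genes are known for CCAAT boxes and for the cell cycle gene homology region (CHR), through which they are held silent in resting cells. The windows of Cdk1, Ccnb2 and Ccnb1, the genes of the group that act in the mitosis of somatic cells, are shown so that the words searched can be seen in place. They are RefSeq windows of 300 bases (GRCm38.p6), each on the minus strand, at chr10:69352863-69353162 for Cdk1, chr9:70421505-70421804 for Ccnb2 and chr13:100786437-100786736 for Ccnb1. Capitals mark matches on either strand to CCAAT, to TTTGAA (CHR) or to any of the E2F words TTTCCCGC, TTTCGCGC, TTTGCCGC and TTTGGCGC, and matches that touch run together.
Cdk1: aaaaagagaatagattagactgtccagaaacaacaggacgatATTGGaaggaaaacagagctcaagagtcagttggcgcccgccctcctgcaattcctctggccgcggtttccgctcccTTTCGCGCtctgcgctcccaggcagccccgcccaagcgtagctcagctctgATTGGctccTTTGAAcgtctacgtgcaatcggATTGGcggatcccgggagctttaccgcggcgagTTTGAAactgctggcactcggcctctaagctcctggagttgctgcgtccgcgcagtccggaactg
Ccnb2: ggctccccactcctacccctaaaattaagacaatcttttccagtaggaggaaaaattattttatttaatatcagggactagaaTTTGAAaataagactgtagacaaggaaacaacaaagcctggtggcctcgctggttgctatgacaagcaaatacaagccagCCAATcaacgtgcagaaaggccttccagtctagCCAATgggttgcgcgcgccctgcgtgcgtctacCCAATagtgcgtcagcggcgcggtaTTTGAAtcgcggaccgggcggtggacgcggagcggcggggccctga
Ccnb1: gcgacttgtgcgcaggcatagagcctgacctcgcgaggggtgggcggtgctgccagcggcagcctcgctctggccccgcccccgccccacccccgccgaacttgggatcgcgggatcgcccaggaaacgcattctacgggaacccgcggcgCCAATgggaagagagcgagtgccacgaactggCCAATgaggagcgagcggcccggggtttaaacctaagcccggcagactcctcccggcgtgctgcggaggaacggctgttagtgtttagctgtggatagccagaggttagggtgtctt
Cdk1 holds 2 CHR words, 3 CCAAT boxes and 1 E2F word, Ccnb2 holds 2 CHR words and 3 CCAAT boxes, and Ccnb1 holds 2 CCAAT boxes and no CHR word in this window. The window of Ccnf holds 2 CHR words and 2 CCAAT boxes, that of Ccna1 holds 1 CCAAT box and no CHR word, and that of Ccnb3 holds none of the words searched. A window was found for 54 of the 64 genes, 60 windows in all. CCAAT stood in 30 of the 60, against 37.4% of all 32851 windows, and TTTGAA in 9 of the 60, against 17.9%. Both words stood together in 5, against 6.95% of all windows, and an E2F word in 3, against 2.26%. A match is a run of letters and not a site shown to be bound.

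Among the Cip/Kip inhibitors, which bind cyclin and CDK complexes directly, 1 of 3 was detected, near the 34.0% of all protein-coding genes. Cdkn1b, encoding p27, had 65, 100, 88 and 36 counts, or 12.0 ± 3.37 TPM (chr6:134920401-134925513, plus strand), and its lowest library was at 8.25 TPM. The nearest opposite-strand gene, Gm44238, lies 3479 bases away and had 10, 25, 16 and 11 counts. Cdkn1a, encoding the p53 target p21, had 0 counts, as did Cdkn1c, encoding the imprinted inhibitor p57. The antisense gene Gm44732 (chr7:143459749-143460640, plus strand) lies in Cdkn1c, shares 98.4% of its own exon bases with it and had 35, 19, 16 and 13 counts. Against the floor of 3 counts over the group, it was at least 88.8-fold denser than Cdkn1c. Nearly all exon bases that could collect these few fragments therefore lie opposite Cdkn1c exons.

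Of the Ink4 inhibitors, which block Cdk4 and Cdk6, Cdkn2d (p19) was detected at 17, 18, 8 and 8 counts, or 6.10 ± 1.83 TPM. Cdkn2c (p18) had 0, 7, 0 and 1 counts, so its mean of 0.536 TPM rests on replicate 2. Cdkn2a and Cdkn2b, the tumour suppressor genes that lie next to each other on chromosome 4, had 0 counts in each library. No Ink4 gene shares exons with an opposite-strand gene.

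**Figure D3:**
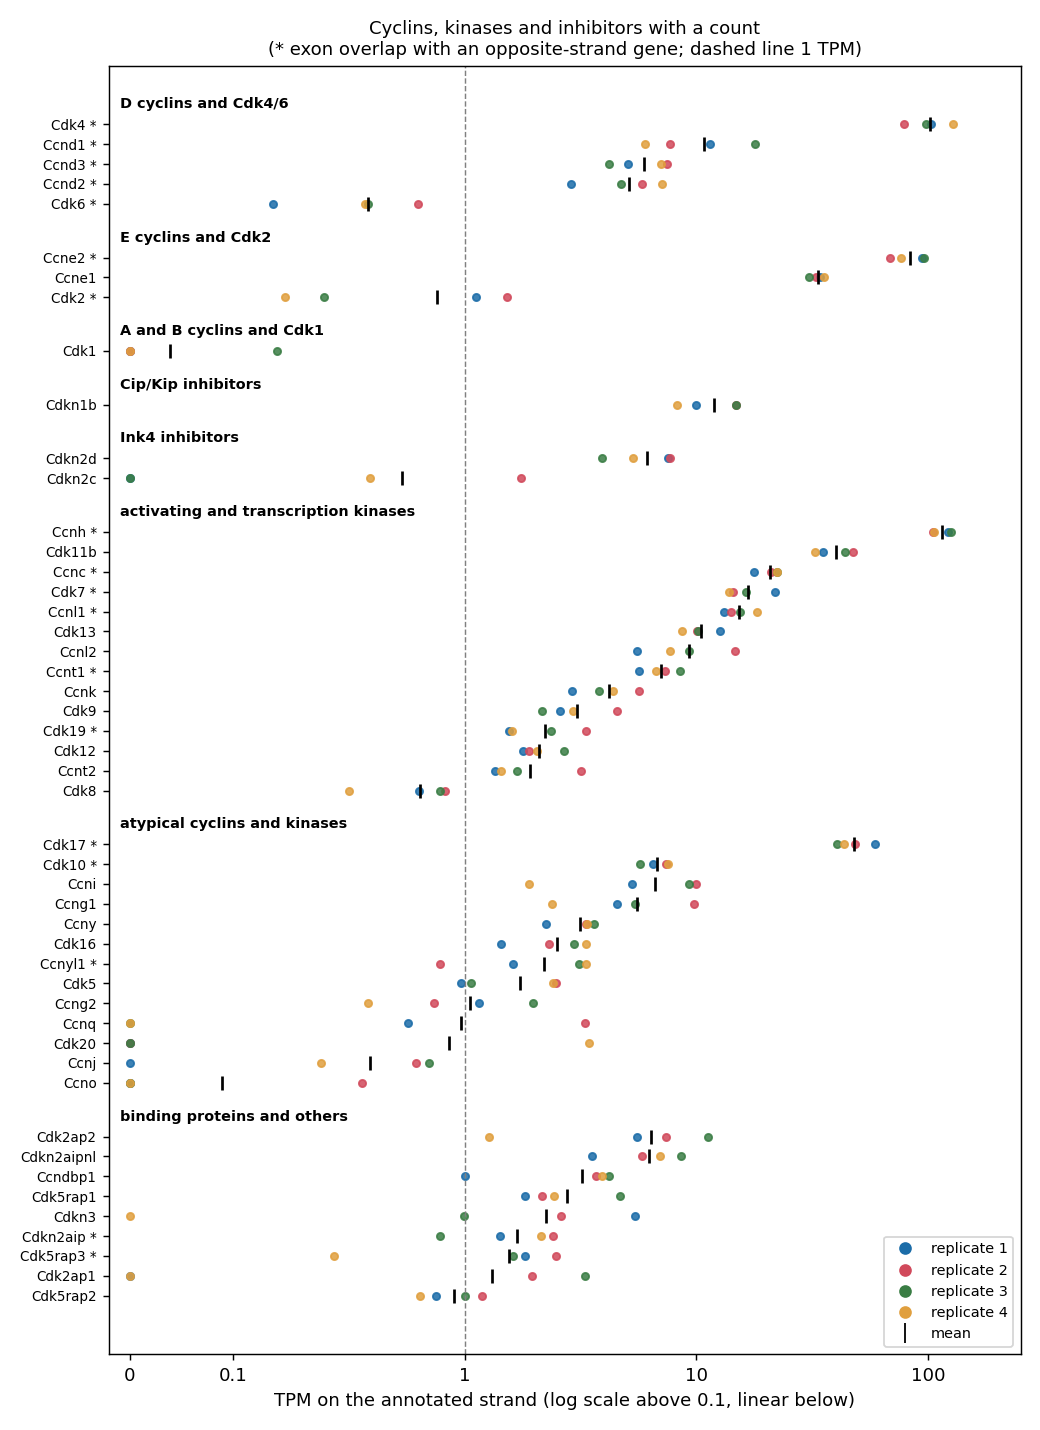
TPM on the annotated strand (horizontal axis, log scale above 0.1) of each protein-coding gene with a count, by role, with 1 point per library and a black bar at the mean of 4. Cdk4, Ccne2 and Ccnh lie between 68.6 and 127.5 TPM in every library, while Cdk20, Cdkn2c and Ccnq have points at 0 beside libraries with counts.

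The kinases and cyclins that act on RNA polymerase II or activate other CDKs were the most completely counted, with 13 of 14 detected and a median of 8.16 TPM. Over all protein-coding genes 34.0% were detected. Of the 14, 6 share exon sequence with an opposite-strand gene, and an opposite gene overlaps the span of Cdk11b, Cdk12 and Cdk13. Role and neighbourhood therefore cannot be told apart in this group either. Ccnh, the cyclin of the CDK-activating kinase and of the transcription factor TFIIH, was the highest of the 64, at 541, 481, 509 and 316 counts, or 114.3 ± 10.7 TPM (chr13:85189408-85223469, plus strand). It meets Rasa1, a Ras GTPase activator, tail to tail with only 12 shared bases, and Rasa1 had 32, 50, 41 and 10 counts. Ccnh was 36.6-fold denser. Cdk7, its kinase partner, had 238, 162, 162 and 101 counts, or 16.6 ± 3.64 TPM. The opposite gene Ccdc125 had 239, 222, 117 and 90 counts and was 2.72-fold denser per kb. By raw counts this pair was not ordered alike in every library, since Cdk7 was above Ccdc125 in replicates 3 and 4.

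Cdk11b, a kinase linked to splicing, had 190, 265, 215 and 117 counts, or 39.8 ± 7.09 TPM. Its exons overlap no opposite-strand gene, though Gm10563 overlaps its span, and Gm16023, 99 bases away on the other strand, had 288, 281, 304 and 178 counts. Ccnc, the cyclin of the Mediator kinase module, had 130, 160, 149 and 109 counts, or 20.8 ± 2.17 TPM, and was 6.85-fold denser than its partner Tstd3, at 10, 8, 6 and 2. Cdk13, which phosphorylates the polymerase tail, had 129, 106, 94 and 59 counts, or 10.4 ± 1.66 TPM. Ccnl2, a splicing cyclin, had 42, 115, 64 and 39 counts, or 9.30 ± 3.90 TPM, and was highest in replicate 2. Cdk8, the Mediator kinase and the 1 gene of the group that was not detected, had 9, 12, 10 and 3.

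For some of these genes the antisense partner covers the promoter window. Ccnl1, the splicing cyclin L1, had 113, 125, 121 and 105 counts, or 15.2 ± 2.25 TPM (chr3:65946151-65958249, minus strand). Gm37305, head to head with it and sharing 442 exon bases, had 1039, 1337, 968 and 729, and was 12.0-fold denser. The Ccnl1 window, chr3:65958200-65958499 on the minus strand, is shown because all 300 of its bases, in capitals, lie in the exon sequence of Gm37305.
Ccnl1: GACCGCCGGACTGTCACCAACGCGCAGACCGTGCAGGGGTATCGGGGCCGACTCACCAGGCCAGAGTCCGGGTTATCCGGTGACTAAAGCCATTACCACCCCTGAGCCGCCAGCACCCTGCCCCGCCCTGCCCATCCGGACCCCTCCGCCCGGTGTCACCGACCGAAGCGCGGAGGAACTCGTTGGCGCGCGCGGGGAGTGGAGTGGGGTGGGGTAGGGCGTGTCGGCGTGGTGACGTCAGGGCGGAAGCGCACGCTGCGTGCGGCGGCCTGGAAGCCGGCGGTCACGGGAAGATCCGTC
The same held for the windows of Cdkn2aip, a binding protein of the Cdkn2a product ARF, and of Ccnt1, the cyclin of the elongation factor P-TEFb. The RefSeq start of Ccnt1 lies 3187 bases inside the gene as counted, while that of Cdkn2aip lies 1 base from its gene start. Cdkn2aip had 8, 14, 4 and 8 counts, while E030037K01Rik, head to head with 667 shared bases, had 374, 411, 269 and 293 and was 89.6-fold denser. Ccnt1 had 74, 99, 101 and 59 counts, or 7.02 ± 1.18 TPM, while 9330020H09Rik, nested in it with 695 shared bases, had 280, 259, 194 and 163 and was 11.4-fold denser. In each of these 3 pairs the antisense gene was above the cyclin or binding protein in all 4 libraries, by raw counts and per kb alike.

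Cdk19, the second Mediator kinase, had 13, 29, 18 and 9 counts, or 2.21 ± 0.837 TPM. Cdk19os, nested in it on the other strand and sharing 268 exon bases, had 78, 116, 100 and 107, or 71.3 ± 21.03 TPM, and was 31.9-fold denser. The remaining genes of the group, Ccnk, Cdk9, Cdk12 and Ccnt2, ran from 1.91 to 4.18 TPM by mean.

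Of the 18 atypical cyclins and kinases 9 were detected, at a group median of 1.01 TPM, against 34.0% of all protein-coding genes. An exon overlap with an opposite-strand gene was present for 5 of the 18. Cdk17, a kinase of the PCTAIRE family, stood far above the rest, at 516, 439, 323 and 254 counts, or 47.8 ± 8.05 TPM (chr10:93160875-93267071, plus strand). It was 2.59-fold denser than its tail-to-tail partner Elk3, an ETS factor with 102, 148, 130 and 64 counts. Cdk10 had 40, 47, 32 and 31 counts, or 6.76 ± 0.844 TPM, and its partner Spata2l had 252, 296, 173 and 188 and was 7.12-fold denser, with the narrowest spread of any ratio (log2 −2.83 ± 0.106). Ccni had 25, 49, 40 and 6 counts, or 6.61 ± 3.77 TPM, and Ccng1, a p53 target, had 23, 51, 25 and 8, or 5.54 ± 3.11 TPM. Both were lowest in replicate 4 and highest in replicate 2. Cdk14, Cdk15, Cdk18, Ccnf and Ccnjl were at 0 in every library. Ccnjl lies opposite Gm12150, at 5, 2, 1 and 2 counts, which makes Gm12150 at least 19.8-fold denser on 10 fragments in all. Ccnyl1 had 8, 4, 14 and 11 counts against 0 for 2810408I11Rik, and was at least 8.35-fold denser. The count of 6 at Cdk20 came from replicate 4 alone, and 6 of the 7 at Ccnq from replicate 2.

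Of the 12 binding proteins and others 8 were detected, against 34.0% of all protein-coding genes, and 2 of the 12 have an opposite exon overlap. None was above a mean of 6.36 TPM. That level was reached by Cdk2ap2, a Cdk2-associated protein, at 13, 18, 24 and 2 counts, with replicate 4 below the floor of 3. Cdkn2aipnl followed at 10, 17, 22 and 13 counts, or 6.23 ± 2.12 TPM. Cdk5rap3 had 10, 14, 8 and 1 counts and lies head to head with D030028A08Rik, at 771, 731, 556 and 470. Since D030028A08Rik also overlaps exons outside Cdk5rap3, its fragments are not assigned to Cdk5rap3. Cdkn3, a phosphatase of Cdk2, had 6, 3, 1 and 0 counts, and Cdk2ap1 had 0, 6, 9 and 0. Cdk5r1, Cdk5r2 and Ccnb1ip1 were at 0 in each library.

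**Figure D4:**
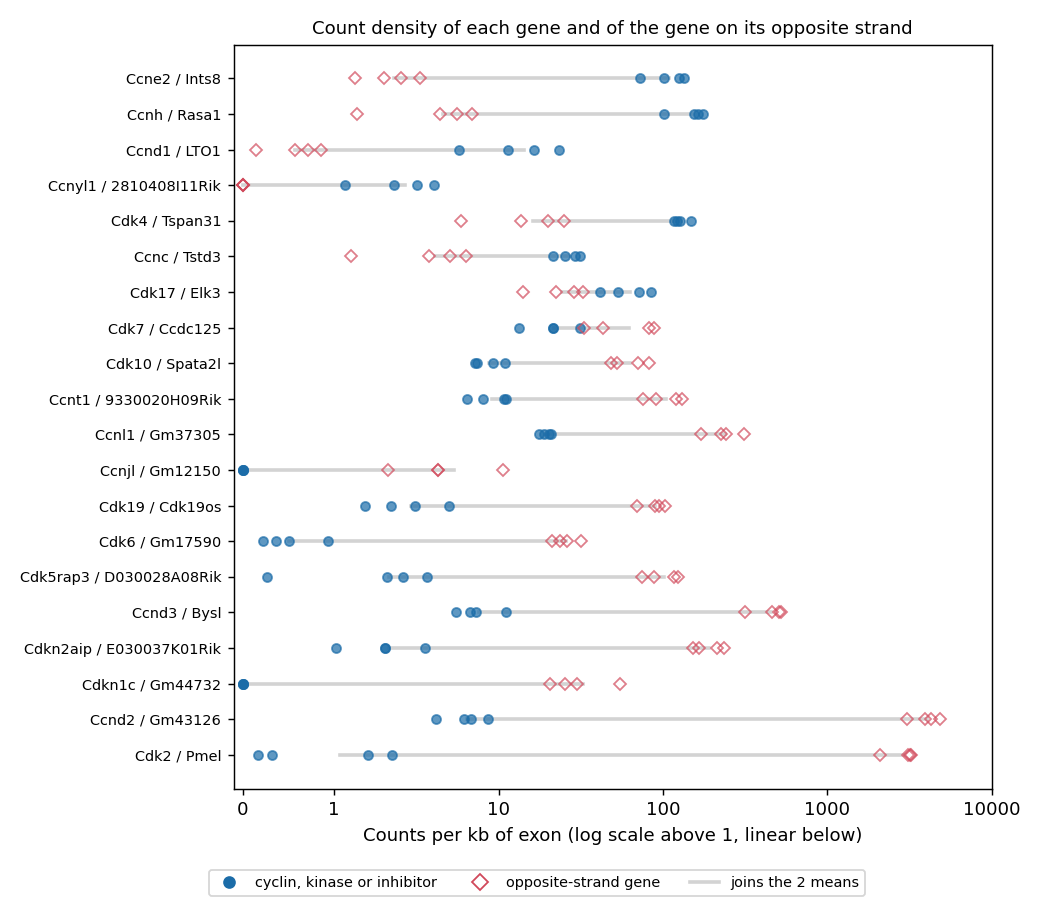
Counts per kb of exon (horizontal axis, log scale above 1) for 20 protein-coding genes (filled circles, 1 per library) and their opposite-strand partners (open diamonds), ordered by log2 ratio, with a grey line joining the means. Pmel and Gm43126 stand furthest to the right in every library, while Ccne2, Ccnh and Cdk4 stand above their own partners.

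Across the 23 pairs, Cdk19 and Cdk19os counted from both sides, the opposite gene was denser than the cyclin, CDK or inhibitor in all 4 libraries for 13, and less dense in all 4 for 8. The other two pairs, at Cdk18 and Ccna1, had no counts in either gene. Over all 8189 genes with such a partner the opposite gene was denser in every library for 31.5%, a figure that also counts pairs with no fragments. With a partner that is not protein-coding it was denser for 9 of 12 protein-coding genes, against 51.5% of 2330. With a protein-coding partner it was denser for 4 of 10, against 39.3% of 2471, which is near that background. The median log2 ratio was −3.55 over the 20 protein-coding genes with a count in the pair, against −2.16 over 4068 such genes. By arrangement, the opposite gene was denser for 5 of 5 nested pairs, against 47.8% of all protein-coding genes with a nested pair. It was denser for 4 of 7 head-to-head pairs, against 43.7%, and 2 of those 7 had no counts. It was denser for 4 of 10 tail-to-tail pairs, against 44.9%. All 5 nested partners are noncoding and 9 of the 10 tail-to-tail partners are protein-coding, so arrangement and partner type cannot be told apart here, and the difference between arrangements was not tested. Where pairs meet tail to tail, the denser gene was the cyclin or CDK for Ccnh, Cdk4, Ccne2, Cdk17, Ccnc and Ccnd1 and the partner for Ccnd2, Ccnd3, Cdk7 and Cdk10.

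Of all fragments in the pairs, the opposite genes held 83.8, 85.18, 84.19 and 84.02% in replicates 1 to 4, or 84.3 ± 0.608% (SD, n = 4). Without the pair of Cdk2 and Pmel the share was 72.6 ± 1.22%. An exact two-sided sign-flip permutation test over 4 libraries cannot go below 2 of 16 sign patterns, and each of the 20 pairs with a count reached that limit. The adjusted p was 0.143 over the 3579 pairs in the tables with a count (Benjamini-Hochberg), so no pair in this design could pass 0.05.

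The spread between libraries was tested by edgeR's quasi-likelihood fit, gene by gene against the trend over all genes. Of 5755 genes tested 16 (0.278%) were more variable than the trend at an adjusted p under 0.05. Of the 26 cyclin, CDK and inhibitor genes tested, 0 were called. With DESeq2's size factors in the same edgeR test 0 were called as well. Only Cdk4 had an unadjusted p under the threshold (edgeR, adjusted p = 0.959), and with DESeq2's size factors there were 2 such genes. Of the 17 opposite-strand genes tested 0 were called, and Ccdc125 was the 1 with an unadjusted p under the threshold. The 17 include Cdk19 and Cdk19os, which are also among the 26. The test had little power with 4 libraries, so these counts of 0 do not show an even level.

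Other cell cycle genes were counted from lists that do not overlap the cyclins and CDKs. The share of detected genes to read them against is 34.0% of all protein-coding genes, or 27.2% of those without an opposite exon overlap. Of 15 replication genes 10 were detected, 7 of them without an opposite exon overlap. Gins2, a subunit of the replicative helicase, stood at 470 ± 68.4 TPM and Mcm7 at 30.8 TPM, both with an exon overlap. The sliding clamp Pcna, without an exon overlap, stood at 7.07 TPM. Of 15 mitosis genes 4 were detected, a share near that background, among them Mki67 at 5.38 TPM and Aurka at 8.15 TPM, while Top2a stood at 0.133 TPM and 3 genes were at 0. Of 13 Rb and E2F genes 6 were detected, 3 without an opposite exon overlap. Rb1, the substrate of the D cyclin kinases, stood at 107.9 ± 4.85 TPM with an exon overlap. E2f5 stood at 12.2 TPM, also with an exon overlap, E2f4 at 4.27 TPM and E2f2 at 1.56 TPM. E2f1, E2f3 and E2f8 had 1 fragment each in all, E2f6 had 7 and E2f7 had 0. Of 8 ubiquitin ligase parts that turn over cyclins and inhibitors 3 were detected, also near the background. These levels carry the strand condition given above.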

How the data were processed

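RNA was measured in 4 libraries of 1 group, taken from the labels. Each deposited table holds raw fragment counts per gene (column 7), made by the authors with featureCounts 1.4.6-p4 in paired mode with strand setting 1 on exons of GENCODE vM13 and mm10, per the file headers. Library totals of 1452053 to 2351916 set the precision. Ribosomal RNA at 1 annotated locus took 3.47 to 16.8% of counts. Symbols came from a table of Ensembl identifiers, which matched 50376 of 50600 genes, and gene types from GENCODE vM21. TPM was computed from the counts and the exon lengths in the files. A gene counted as detected at a mean TPM of 1 or more. Each gene was paired with the opposite-strand gene of longest exon overlap (at least 1 base). Density is counts per kb of exon. Log2 ratios used 0.5 added to each count. Pairs at 0 in both genes got no ratio. Spread was tested with edgeR 4.0.16 (TMM, filterByExpr, intercept only, upper-tail F test, Benjamini-Hochberg) in R 4.3.3, and the test was tried on simulated data. DESeq2 1.42.0 gave the alternative size factors. Python 3.11.15, pandas 2.3.3 and numpy 2.4.6 did the rest. The genes named are every classical cyclin, CDK and inhibitor by role, the 15 highest by mean TPM, and those whose partner has a mean count of 20 or more. Others are named as examples, chosen after their values were seen. The genes and lists were chosen with earlier results of these data known. Intervals and floors cover counting error only. Alternatives left out each replicate, changed the TPM minimum, the pseudocount, the overlap, the size factors and the filter. One gene of the family and a few other items are not reported here.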

Additional observations from a re-analysis of the deposited data

Results flagged for a closer look

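Gm44732, the antisense gene in Cdkn1c, had 1 library apart from the other 3: replicate 1 at 16.4 CPM against 8.08 to 8.95 CPM. The gap to the nearest library was 0.895 of the gene's whole range, above the 95% critical value of Dixon's test for 4 samples. It was the only one of 56 genes screened (those of the set and their partners with at least 20 counts), and chance alone would place about 1 in 20 such groups past the value.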

How the results depend on the processing

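The number of detected genes was 38 of 64, and 38 to 40 when each replicate was left out. It was 44 at 0.5 TPM, 32 at 2 TPM, 31 when every library had to pass and, chosen after seeing the data, 40 with the ribosomal RNA locus and mt-Nd6 left out of the totals. Over the 42 genes without an opposite exon overlap it was 22. The opposite gene was denser in every library for 13 of 23 pairs, and for 13 whichever replicate was left out, 13 with all opposite genes summed, 12 by raw counts (without Cdk7), 11 of 19 with overlaps of at least 100 bases and 11 of 21 where the gene is its partner's own longest overlap. The share of pair counts on the opposite genes stayed at 84.0 to 84.5% when each replicate was left out. It moved to 76.5% with overlaps of at least 100 bases, to 72.6% without Cdk2 and Pmel and to 70.6% where the gene is its partner's own longest overlap. The last 2 settings were added after seeing the data. Each drops the large count of Pmel, and so does the minimum of 100 bases, since Cdk2 and Pmel share 34. Of 120 alternative log2 ratios over 20 pairs, 120 kept their sign. Another pseudocount moved 6 of them by over 1.5-fold, all at Ccnyl1, Cdkn1c and Ccnjl, where 1 gene of the pair is at 0. The count of genes more variable than the trend was 0 in edgeR's test with each replicate left out, with DESeq2's size factors and, over 49 genes, without the filter. No paired analysis was possible because there is 1 group. Depth limits the genes under about 10 counts, where 1 library can decide the mean.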
